A study of Physcomitrium patens with 24 samples.

Results

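The comparison described here follows the moss Physcomitrella patens (Physcomitrium patens in the labels) from 6 to 12 h of heat at 37 °C. Its members are the 4 libraries labelled 37 °C, 12 h or 6 h, out of 24 libraries in the series, taken by temperature and time from the labels. The tissue was protonema, the filamentous juvenile stage of the Gransden strain, grown axenically on agar in a 24 °C chamber with a day and night cycle. The 12 h group and the 6 h group at 37 °C had 2 libraries each, and the same interval was also sampled at 30 °C and at 24 °C (the control temperature), with 4 libraries at each temperature. All groups share strain and medium, no transgene is named, and each library was made from polyA-selected messenger RNA of protonemal tissue. The light regime is described for the 24 °C growth chamber, and not for the treatments at 30 and 37 °C. The labels give no clock time of harvest, so heat duration and time of day cannot be told apart within 37 °C. The 24 °C samples had the same durations without heat, and whether they were taken at the same hours of the day is not stated in the labels.

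Plants meet heat with heat shock factors, transcription factors that bind heat shock elements in promoters and switch on chaperones. The small HSP20 proteins hold unfolded proteins, HSP70 with its DNAJ and BAG partners and HSP90 refold them, and chaperonins enclose them. The circadian clock runs beside this response. In Arabidopsis, morning MYB factors such as CCA1, the pseudo-response regulators (PRR) and the evening complex with ELF3 repress each other in turn, and COP1 and DET1 act in ubiquitin-dependent repression of light signalling.

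Total counts of the 4 libraries were 6891686 and 9060778 at 12 h, and 8179580 and 7845829 at 6 h. Replicates differed by far more than counting noise in both groups, with a chi-square per gene of 26.3 at 12 h and 14.0 at 6 h, so no library was a repeat of another. Their log2 CPM values (CPM, each count relative to its library's total as scaled by trimmed mean of M values) correlated across genes at r = 0.969 at 12 h and r = 0.981 at 6 h, where genes are not independent replicates. In RNA from whole tissue, fewer cells of a type and less RNA per cell cannot be told apart. The protonema label could not be checked with the markers fixed for it, since most had no name here. A Rubisco small chain gene, Pp3c3_12530, was detected in all 4 libraries. Its mean at 24 °C after 12 h was 0.353 CPM, and it passed as higher at 37 °C than at 24 °C at both times. Its detection is therefore no check of the label.

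Between 6 and 12 h at 37 °C, 549 genes rose (2.56% of the 21429 genes tested) and 950 fell (4.43%). A gene passed with an adjusted p under 0.05 in edgeR's quasi-likelihood test and a log2 fold change whose size was 1 or more, and "rose" and "fell" are used of such genes only. The median log2 fold change was 1.45 among the genes that rose and −1.47 among those that fell, and 151 and 221 genes changed by at least 2 on the log2 scale. The count of rising genes depended on single libraries: it was 353 without 6 h replicate 1, 303 without 6 h replicate 2, 358 without 12 h replicate 2 and 625 without 12 h replicate 1. The count of falling genes lay between 767 and 1205 in the same 4 fits. Scaling by library totals in place of trimmed means shifted the median of all genes to 0.195 on the log2 scale, against 0.032, and 55.6% of the changed genes then rose, against 36.6%.

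Only 3.74% of the changed genes carried a product name, because names came from the study's tables, which mostly list genes that were up after 1 h at 37 °C. The named groups below therefore describe a heat-induced and clock-related minority. Of 42 genes named by rule that changed, 29 passed in all 4 fits that left out 1 library, and where a call was lost the value stands beside it.

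**Figure D1:**
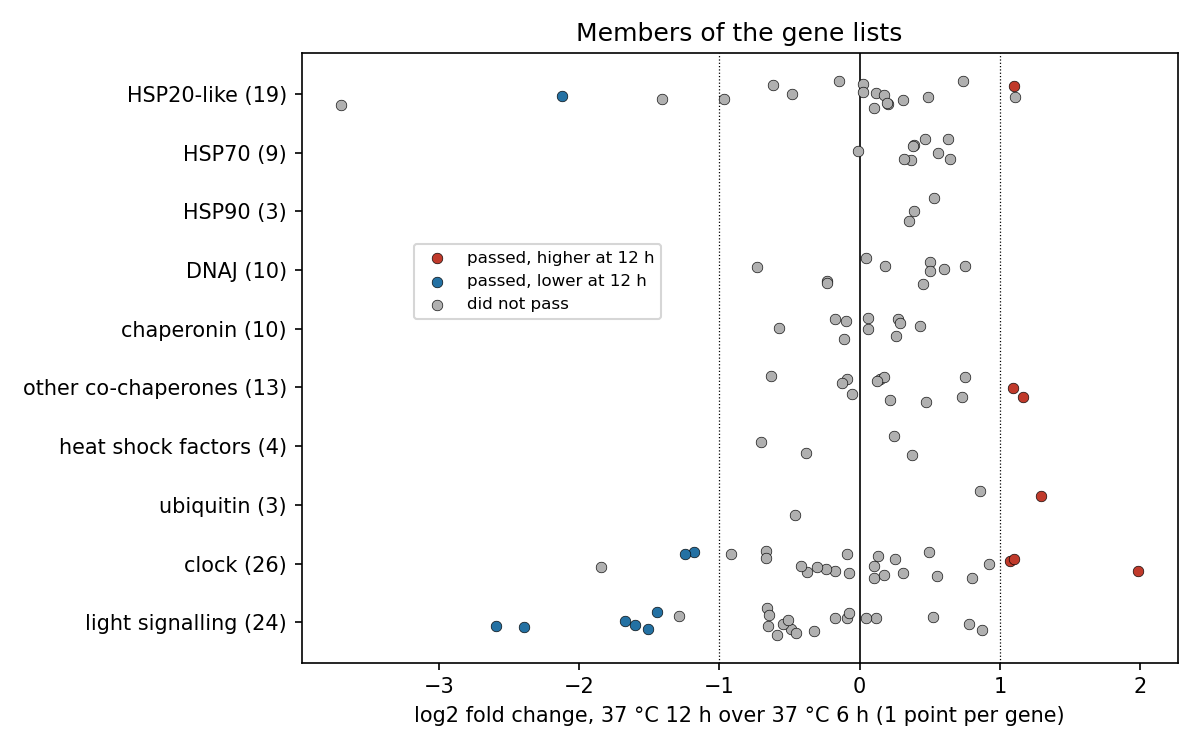
Log2 fold change of each gene at 37 °C, 12 h over 6 h, by gene list, with the number of genes tested in brackets; red and blue points passed the test and dotted lines mark a log2 fold change of 1 in size. Most chaperone genes sit between the dotted lines, 6 of 24 light signalling genes lie beyond the left one as falling genes, and the point farthest left is a gene with almost no counts.

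Chaperone genes passed about as seldom over this interval as genes in general. Of 70 genes of heat shock protein, co-chaperone and heat shock factor families, 3 rose, 1 fell and 66 did not pass, where 2.56% of all genes rose and 4.43% fell. None of the 70 rose without 6 h replicate 2 or without 12 h replicate 1, and 2 and 4 of them fell in those fits. Their median log2 fold change was 0.19, against 0.03 over all genes tested. Of the 70, 47 moved by less than 0.5 in size, a share that was not counted over all genes. The same genes stood above 24 °C at both times: 58 of 70 passed as higher at 37 °C than at 24 °C after 12 h (16.7% of all genes), with a median log2 fold change of 2.49, and 58 after 6 h (13.8% of all genes), with a median of 2.53. The names were chosen for up-regulation after 1 h in these samples, so these counts are not independent evidence of that direction. After 12 h 0 of the 70 passed as lower than at 24 °C (18.8% of all genes), though 3 did not have a positive log2 fold change, and after 6 h 1 passed as lower (17.5% of all genes).

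Within the HSP20-like genes, small chaperones with an alpha-crystallin domain, 1 of 19 rose and 1 fell. Pp3c1_7030 had 1720 and 1217 CPM at 12 h, against 799 and 573 CPM at 6 h, and the groups did not overlap. Its log2 fold change was 1.10 ± 0.26 (SE; adjusted p = 0.00792, edgeR), and the call was lost without 6 h replicate 2 (0.88, adjusted p = 0.0977) and without 12 h replicate 1 (0.83, adjusted p = 0.0632). Pp3c17_10780 went the other way, with 62.4 and 26.7 CPM at 12 h, against 217 and 169 CPM at 6 h. It fell by 2.12 ± 0.32 on the log2 scale (adjusted p = 0.000214), and passed without any one library. Both were low at 24 °C after 12 h, at 3.93 CPM for Pp3c1_7030 and 0.986 CPM for Pp3c17_10780. After 1 h at 24 °C their means were 18.7 and 3.55 CPM. The most abundant HSP20-like gene, Pp3c12_24560, had 2311 and 943 CPM at 12 h, against 1605 and 1225 CPM at 6 h, so the 12 h libraries enclosed those of 6 h. Its log2 fold change of 0.20 ± 0.29 did not pass (adjusted p = 0.7).

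None of the 9 HSP70 genes, 3 HSP90 genes, 10 DNAJ genes, 10 chaperonin genes or 4 heat shock factor genes passed in either direction. The medians of the log2 fold change were 0.38 for HSP70, 0.39 for HSP90, 0.32 for DNAJ, 0.06 for chaperonins and −0.07 for heat shock factors. Pp3c26_10600, an HSP70, had 752 and 833 CPM at 12 h, against 717 and 503 CPM at 6 h (log2 fold change 0.38 ± 0.29, adjusted p = 0.435). The heat shock factor 3 gene Pp3c22_9250 had 44.3 and 25.0 CPM at 12 h, against 60.1 and 52.2 CPM at 6 h, which did not overlap, and its log2 fold change of −0.70 ± 0.27 missed the threshold (adjusted p = 0.0954).

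The other 2 chaperone-related genes that rose were HSP70 partners. Pp3c13_3400, named as BAG6 (a co-chaperone with a BAG domain that binds HSP70), had 243 and 159 CPM at 12 h, against 109 and 69.9 CPM at 6 h (log2 fold change 1.16 ± 0.38, adjusted p = 0.0483). Of the 4 fits with a library left out, it passed only in that without 12 h replicate 2. The value was 1.52 (adjusted p = 0.0655) without 6 h replicate 1, 0.88 (0.296) without 6 h replicate 2 and 0.83 (0.23) without 12 h replicate 1. Pp3c20_2600, named Fes1A after a factor that exchanges the nucleotide of HSP70 in Arabidopsis, had 49.7 and 28.3 CPM at 12 h, against 21.3 and 15.1 CPM at 6 h (log2 fold change 1.09 ± 0.31, adjusted p = 0.0264). Without 6 h replicate 2 it was 0.87 (adjusted p = 0.202) and without 12 h replicate 1 it was 0.64 (adjusted p = 0.241).

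Of 49 genes tested with a listed heat shock motif in the stretch before the start codon, 2 rose and 0 fell. Over all genes tested 2.56% rose and 4.43% fell. The 2 motif genes that rose are BAG6 Pp3c13_3400 and Fes1A Pp3c20_2600. Their sites are printed to show the motif listed for genes that rose and for genes that did not pass, of which the 2 of highest CPM are shown. Capitals mark the motif and lower case the bases beside it, 5′ to 3′ in the orientation of the motif, as listed in the study's supplementary table.
Pp3c13_3400 (BAG6), site 1: ttcaaaGAAGGATCCAGAcgcagc
Pp3c13_3400 (BAG6), site 2: aaagcaGCACCTTCTAGAatgcaa
Pp3c20_2600 (Fes1A): caaattGAACCTTCCGGAagctct
Pp3c26_2180 (TCP-1/cpn60 chaperonin): catctgGAAGCATCTAGAagccga
Pp3c10_13060 (transcriptional coactivator-like): aagaagGAAGGCTCTAGAagtttc
The 49 genes had a median log2 fold change of 0.20, against 0.03 over all genes tested. Of the 49, 40 had a positive value, a share that was not counted over all genes. They had been taken by the study from a co-expression module of these same libraries. Pp3c26_2180 had 1163 and 840 CPM at 12 h, against 1191 and 978 CPM at 6 h (log2 fold change −0.12 ± 0.20, adjusted p = 0.76), and Pp3c10_13060 had 945 and 828 CPM at 12 h, against 1005 and 781 CPM at 6 h (−0.01 ± 0.19, adjusted p = 0.987). The motif was thus listed for genes on both sides of the threshold.

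Clock and light signalling genes changed in both directions. Of 50 genes tested from the study's circadian table, 3 rose and 8 fell, with a median log2 fold change of −0.27, against 2.56% and 4.43% of all genes and a median of 0.03. Without 1 library in turn, 8 to 11 of the 50 fell and 1 to 5 rose: 1 without 6 h replicate 2 or without 12 h replicate 2, and 5 without 12 h replicate 1. The genes that fell were 5 of 9 COP1 homologs, the DET1 homolog, a PRR3 gene and 1 of the CCR2 homologs. Against 24 °C, 7 of the 50 passed as higher at 37 °C and 17 as lower after 12 h (16.7% and 18.8% of all genes), and 10 as higher and 10 as lower after 6 h (13.8% and 17.5% of all genes). The higher counts at both times and the lower count at 6 h were near the shares over all genes.

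COP1 is a ubiquitin ligase that marks light-signalling transcription factors for breakdown. Of its homologs, Pp3c2_24290 had the highest level, at 207 and 140 CPM at 12 h, against 540 and 450 CPM at 6 h. It fell by 1.51 ± 0.24 on the log2 scale (adjusted p = 0.000328). Pp3c1_13190 had 49.1 and 57.7 CPM at 12 h, against 190 and 151 CPM at 6 h, and fell by 1.67 ± 0.26 (adjusted p = 0.00026). At both loci each 12 h library lay well under each 6 h library. Pp3c16_19410 fell by 1.44 ± 0.21 (17.4 and 13.0 CPM at 12 h, against 39.2 and 42.9 CPM at 6 h), and Pp3c6_5030 fell by 1.61 ± 0.33 (3.59 and 10.7 CPM at 12 h, against 26.2 and 18.5 CPM at 6 h). The steepest fall was at a low level, in Pp3c5_26150, with 0.552 and 0.897 CPM at 12 h, against 4.33 and 4.86 CPM at 6 h (log2 fold change −2.59 ± 0.32, adjusted p = 2.81e-05). These 5 calls held without any one library. The other 4 homologs did not pass, with log2 fold changes of −1.29 ± 0.92 in Pp3c13_21340, −0.65 ± 0.25 in Pp3c3_16700, −0.18 ± 0.21 in Pp3c7_14320 and 0.12 ± 0.14 in Pp3c11_15840.

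The COP1 homologs had unlike courses over the 37 °C samples. Pp3c5_26150 and Pp3c6_5030 were highest after 1 h, at 345 and 433 CPM, and stood at 50.7 and 107 CPM after 24 h. Pp3c2_24290 and Pp3c1_13190 were highest after 6 h, with 69.0 and 46.4 CPM after 1 h, and 53.0 and 30.2 CPM after 24 h. At 24 °C Pp3c6_5030 also fell over the interval (3.82 CPM at 12 h, against 28.1 CPM at 6 h), and so did Pp3c5_26150 (5.37 CPM at 12 h, against 19.6 CPM at 6 h). Pp3c1_13190 did not pass there, at 89.9 CPM at 12 h and 83.3 CPM at 6 h. Near-identical family members may share reads, so the split of counts among the 9 is uncertain.

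DET1, a nuclear partner of the COP1 pathway, had the smallest adjusted p of the circadian table. The homolog Pp3c19_5540 had 7.45 and 11.2 CPM at 12 h, against 53.7 and 45.1 CPM at 6 h (log2 fold change −2.39 ± 0.20, adjusted p = 7.56e-07). Over 1, 6, 12 and 24 h at 37 °C its mean ran 550, 49.4, 9.30 and 166 CPM, so 12 h was its lowest point. At 24 °C the means were 228, 69.4, 34.3 and 258 CPM, with the lowest point at the same time.

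Among the clock genes proper, PRR3 and ELF3 moved in opposite directions. The pseudo-response regulator Pp3c16_18610 (PRR3) had 510 and 535 CPM at 12 h, against 1242 and 1233 CPM at 6 h, with replicates that nearly coincided (log2 fold change −1.25 ± 0.16, adjusted p = 3.64e-05). The PRR9 homolog Pp3c25_4920 missed the fold limit, at 78.2 and 79.0 CPM at 12 h, against 149 and 147 CPM at 6 h (−0.92 ± 0.15, adjusted p = 0.000458). The ELF3 homolog Pp3c7_10610 had 76.0 and 64.8 CPM at 12 h, against 12.1 and 23.5 CPM at 6 h, and rose by 1.98 ± 0.24 (adjusted p = 2.57e-05). The second ELF3 homolog, Pp3c11_14750, had 48.8 and 59.6 CPM at 12 h, against 26.6 and 30.6 CPM at 6 h. Its groups did not overlap, but 0.92 ± 0.41 did not pass (adjusted p = 0.148). The ELF4 homolog Pp3c6_6280, whose Arabidopsis namesake joins ELF3 in the evening complex, had 15.3 and 19.9 CPM at 12 h, against 8.91 and 11.4 CPM at 6 h, with an adjusted p of 0.00847 at a fold change of 0.80 ± 0.19, under the limit of 1.

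Of the remaining clock genes, Pp3c12_17450, homolog of the MYB-like factor EPR1, rose by 1.08 ± 0.23 (adjusted p = 0.00494), with 18.6 and 21.5 CPM at 12 h, against 12.6 and 6.43 CPM at 6 h. It did not pass without 6 h replicate 2 (0.67, adjusted p = 0.0722) or without 12 h replicate 2 (0.96, under the fold limit). Pp3c20_13600, homolog of the cytokinin response regulator ARR4, had 4.41 and 6.88 CPM at 12 h, against 2.93 and 2.36 CPM at 6 h (1.10 ± 0.34, adjusted p = 0.04). Its call was lost without either 6 h library (adjusted p = 0.0993 and 0.208) and without 12 h replicate 2 (0.332). Pp3c11_19620, a homolog of CCR2 (a glycine-rich RNA-binding protein under clock control in Arabidopsis), had 344 and 392 CPM at 12 h, against 738 and 937 CPM at 6 h, and fell by 1.19 ± 0.18 (adjusted p = 0.000285). Another CCR2 homolog, Pp3c7_6560, did not pass, with 11083 and 8057 CPM at 12 h, against 7867 and 9116 CPM at 6 h. The CCA1 homolog Pp3c3_37540 was near the limit of detection, at 0.414 and 0.299 CPM at 12 h, against 1.66 and 0.919 CPM at 6 h, and did not pass (adjusted p = 0.105).

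No photoreceptor gene passed. The cryptochrome homologs Pp3c7_20480 (CRY2) and Pp3c7_20520 (CRY1) had log2 fold changes of −0.55 ± 0.15 and −0.51 ± 0.15, with adjusted p-values of 0.0208 and 0.0335 but under the fold limit. The phytochrome homologs ranged from −0.66 in Pp3c12_9240 (PHYE) to 0.87 in Pp3c25_2610 (PHYA). For that PHYA homolog the libraries had 94.8 and 199 CPM at 12 h, against 75.9 and 84.9 CPM at 6 h, and the 12 h replicates differed more than the groups did.

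**Figure D2:**
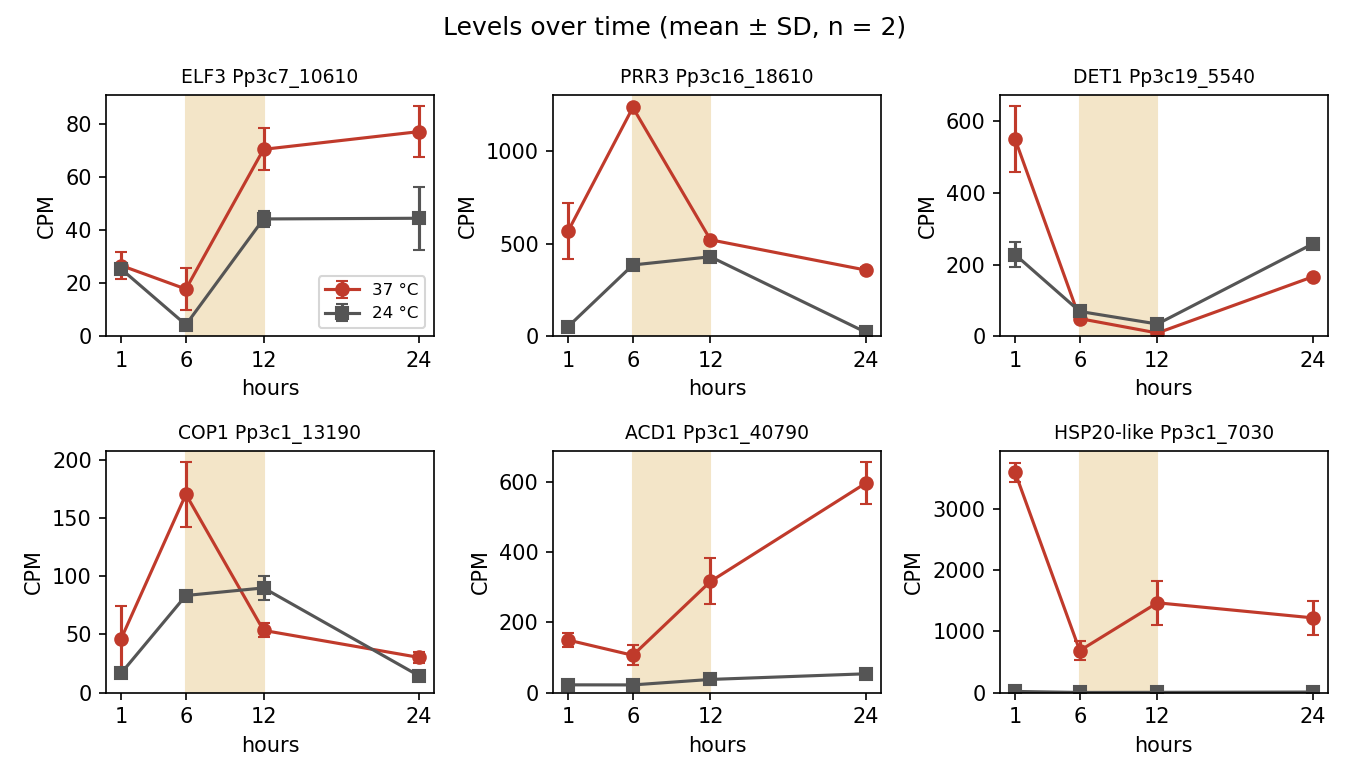
Mean CPM ± SD (2 libraries per point) over hours of treatment at 37 °C (red circles) and 24 °C (grey squares) for 6 genes, with the interval from 6 to 12 h shaded. PRR3 Pp3c16_18610 and COP1 Pp3c1_13190 peak at 6 h at 37 °C, and DET1 Pp3c19_5540 is lowest at 12 h at both temperatures.

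The named genes that changed included 4 with a product in chloroplasts or chlorophyll breakdown, grouped here after their values were seen. In the lists, 0 of 3 photosystem and electron transport genes passed (median log2 fold change −0.06), nor did the only carotenoid and isoprenoid gene (0.68). ACD1, the pheophorbide a oxygenase that opens the ring of chlorophyll during its breakdown, rose: Pp3c1_40790 had 270 and 362 CPM at 12 h, against 85.8 and 126 CPM at 6 h (log2 fold change 1.58 ± 0.25, adjusted p = 0.000298). Its mean was 595 CPM after 24 h at 37 °C. A STAY-GREEN-like gene, of a family that removes magnesium from chlorophyll, fell: Pp3c20_6290 had 55.3 and 46.5 CPM at 12 h, against 245 and 130 CPM at 6 h (−1.88 ± 0.25, adjusted p = 5.05e-05). The EGY2-like gene Pp3c24_14160, named after a membrane protease of chloroplasts, had 172 and 158 CPM at 12 h, against 710 and 519 CPM at 6 h, and fell by 1.90 ± 0.21 (adjusted p = 8.42e-06). The Rubisco small chain gene Pp3c3_12530 fell by 2.39 ± 0.30 (adjusted p = 2.81e-05), with 16.4 and 15.1 CPM at 12 h, against 108 and 57.9 CPM at 6 h. It still stood above 24 °C, with log2 fold changes of 5.36 after 12 h and 3.28 after 6 h, both of which passed. The Rubisco small chain family has near-identical copies, so the counts of this gene are uncertain. All 4 calls held without any one library.

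Several other named genes fell, taken by the rule that asked for libraries that do not overlap. Pp3c3_11730, an alpha/beta-hydrolase, had 17.8 and 24.4 CPM at 12 h, against 86.3 and 82.3 CPM at 6 h (log2 fold change −1.99 ± 0.21, adjusted p = 5.01e-06). Pp3c2_35200, of the low temperature and salt responsive family of small membrane proteins, had 65.4 and 41.1 CPM at 12 h, against 249 and 234 CPM at 6 h (−2.19 ± 0.44, adjusted p = 0.00256). The B-box zinc finger gene Pp3c14_10320 had 21.7 and 18.5 CPM at 12 h, against 71.8 and 58.9 CPM at 6 h (−1.70 ± 0.25, adjusted p = 0.000184). GA20ox1, a gibberellin 20-oxidase by name, was measured at 8.83 and 10.3 CPM at 12 h, against 50.7 and 25.1 CPM at 6 h, in Pp3c25_8200 (−1.98 ± 0.37, adjusted p = 0.00139). Of 5 genes with late embryogenesis abundant in their name 1 fell, where 4.43% of all genes fell, and the median of the 5 was 0.08. The falling gene, Pp3c21_10640, is named as of a hydroxyproline-rich glycoprotein family. Pp3c21_10640 had 13.9 and 20.2 CPM at 12 h, against 107 and 55.6 CPM at 6 h (−2.24 ± 0.53, adjusted p = 0.00818). It did not pass without 6 h replicate 1 (−1.69, adjusted p = 0.0893) or without 12 h replicate 1 (adjusted p = 0.0599).

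Named genes that rose covered translation, metal transport and protein turnover, with no shared list behind them. Of these, the largest change was in Pp3c24_9310, an eIF3 subunit of the translation initiation machinery, with 98.6 and 87.3 CPM at 12 h, against 22.4 and 20.2 CPM at 6 h (log2 fold change 2.12 ± 0.26, adjusted p = 2.31e-05). Pp3c23_2900, named maternal effect embryo arrest 59, had 298 and 309 CPM at 12 h, against 105 and 125 CPM at 6 h (1.4 ± 0.19, adjusted p = 5.95e-05). The cation efflux gene Pp3c2_25950, of a family of metal transporters, had 43.7 and 39.0 CPM at 12 h, against 15.4 and 17.5 CPM at 6 h (1.33 ± 0.24, adjusted p = 0.000957). Replicates in these 3 genes lay close together, and their calls held without any one library. Pp3c12_18980, a cyclophilin-like isomerase that helps proteins fold at proline bonds, had 95.6 and 109 CPM at 12 h, against 48.3 and 45.7 CPM at 6 h (1.12 ± 0.15, adjusted p = 8.28e-05).

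Polyubiquitin genes encode chains of the tag that marks proteins for breakdown. Of the 3 genes in the ubiquitin list 1 rose, where 2.56% of all genes rose, and the lowest log2 fold change, −0.46, did not pass. Pp3c12_18200 rose by 1.29 ± 0.29 (adjusted p = 0.00597), with 770 and 537 CPM at 12 h, against 340 and 195 CPM at 6 h, but not without 6 h replicate 2 (0.94, adjusted p = 0.0887). Pp3c19_8830 had 1022 and 633 CPM at 12 h, against 518 and 393 CPM at 6 h, a log2 fold change of 0.86 ± 0.25 (adjusted p = 0.029) under the fold limit. Reads of such repeated sequences can be shared among the 3 genes of this list. The LON domain gene Pp3c15_22980, named after an ATP-dependent protease, had 158 and 228 CPM at 12 h, against 70.3 and 90.8 CPM at 6 h (1.26 ± 0.31, adjusted p = 0.0103). It did not pass without 6 h replicate 1 or without 12 h replicate 2 (adjusted p = 0.103 in each).

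**Figure D3:**
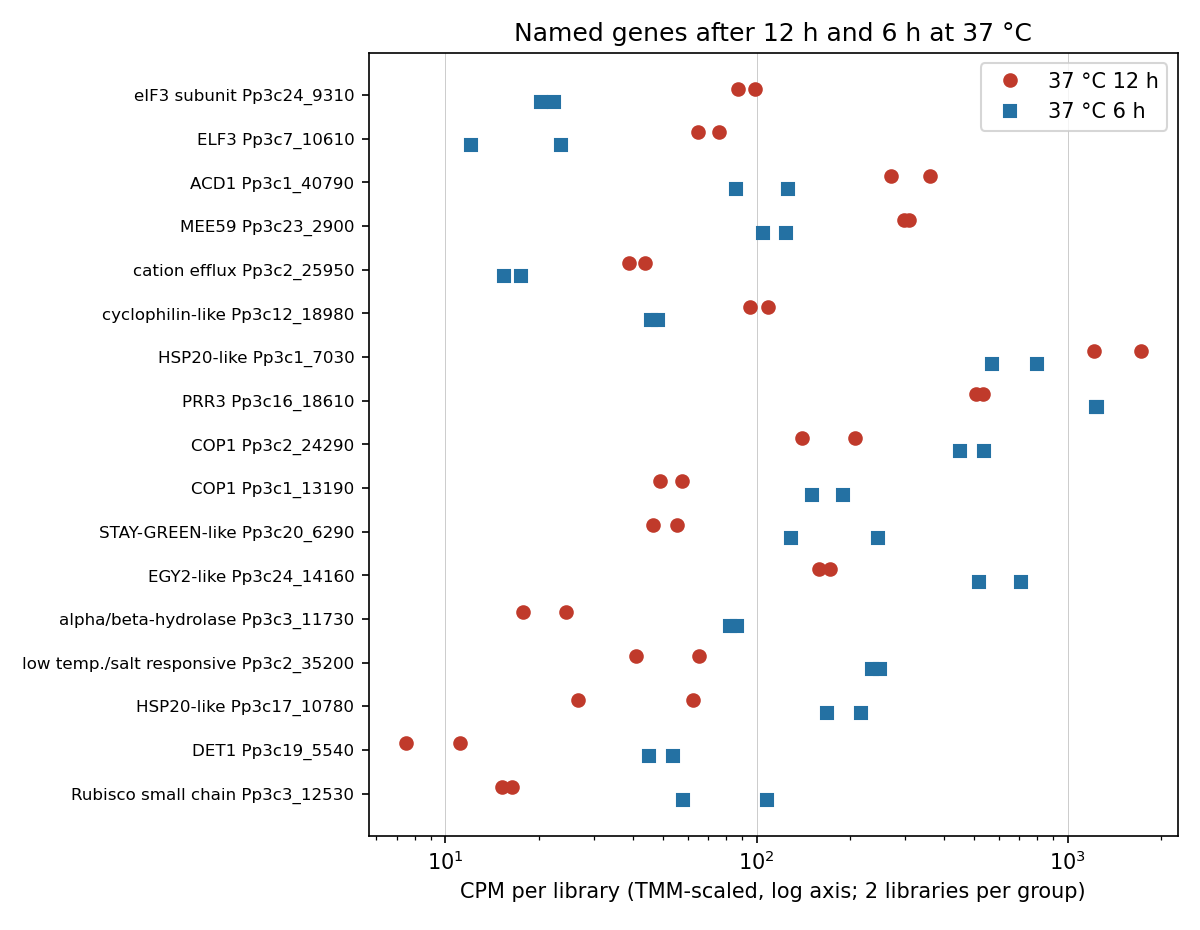
CPM per library on a log axis for 17 named genes at 37 °C, 12 h (red circles, 2 libraries) and 6 h (blue squares, 2 libraries). Levels run from DET1 Pp3c19_5540 at 7.45 and 11.2 CPM at 12 h to HSP20-like Pp3c1_7030 at 1720 and 1217 CPM at 12 h. All genes drawn had passed the test, and for most of them groups that do not overlap were a condition of choice. The gap between groups is therefore no separate result.

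The genes without a name that the rule gave, 2 in each direction, changed by more than any named gene. Pp3c21_18499 had 41.1 and 23.7 CPM at 12 h, against 0.891 and 0.919 CPM at 6 h (log2 fold change 5.13 ± 0.69, adjusted p = 0.000325), and was at 0 in the 24 °C means of all times. Pp3c14_24040 had 8.69 and 19.6 CPM at 12 h, against 0.127 and 1.18 CPM at 6 h (4.43 ± 0.72, adjusted p = 0.000436). Pp3c1_40570 had 24.3 and 14.4 CPM at 12 h, against 392 and 243 CPM at 6 h (−4.05 ± 0.68, adjusted p = 0.000625). Pp3c25_11340 had 2.48 and 0.897 CPM at 12 h, against 26.5 and 21.0 CPM at 6 h (−3.88 ± 0.64, adjusted p = 0.000474). All 4 passed without any one library.

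At 37 °C, 682 of the 950 genes that fell had a 1 h mean above both the 12 h and the 6 h mean. After 24 h, 404 stood below both of these means, 388 lay between them and 158 stood above both. Of the 549 genes that rose, 255 had a 1 h mean below both, and after 24 h 244 stood above both, 253 between and 52 below both. These positions are a description, since the 12 h and 6 h values chose the genes. They were not counted over all genes tested, so no background share stands beside them.

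At 24 °C the same interval gave fewer changed genes, 94 that rose (0.439% of genes tested) and 246 that fell (1.15%). The counts at 30 °C were 144 (0.672%) and 439 (2.05%). For rising genes the order of 37 °C and 24 °C turned round when each was fitted on its own libraries, with 129 at 37 °C and 145 at 24 °C, while 570 fell at 37 °C and 325 at 24 °C. The 3 temperatures share no library in these comparisons, though they share 1 model. The 94 and 144 depend on single libraries: without one they fell to as low as 52 at 24 °C (without 24 °C 6 h replicate 2) and 77 at 30 °C (without 30 °C 6 h replicate 1), and the 246 to 109 (without 24 °C 12 h replicate 2).

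The genes that fell at 37 °C leaned the same way at the lower temperatures. Their median log2 fold change from the same interval was −0.41 at 24 °C and −0.60 at 30 °C, and 79.2% and 83.6% of them had a negative value, against 50.1% and 48.7% of all genes. Of the 950, 123 (12.9%) also fell at 24 °C, which is 50.0% of the 246 genes that fell there, and 264 (27.8%) also fell at 30 °C, which is 60.1% of the 439. The genes that rose leaned less: their medians were 0.04 at 24 °C and 0.24 at 30 °C, and 53.6% and 68.9% had a positive value, against 48.8% and 50.6% of all genes. Of the 549, 15 (2.73%) also rose at 24 °C, 16.0% of the 94, and 22 (4.01%) also rose at 30 °C, 15.3% of the 144. Over the 1499 changed genes the log2 fold changes at 37 °C correlated at r = 0.301 with those at 24 °C and r = 0.504 with those at 30 °C, and over all genes tested at r = 0.111 and r = 0.186, across genes that share library depth and are not independent.

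**Figure D4:**
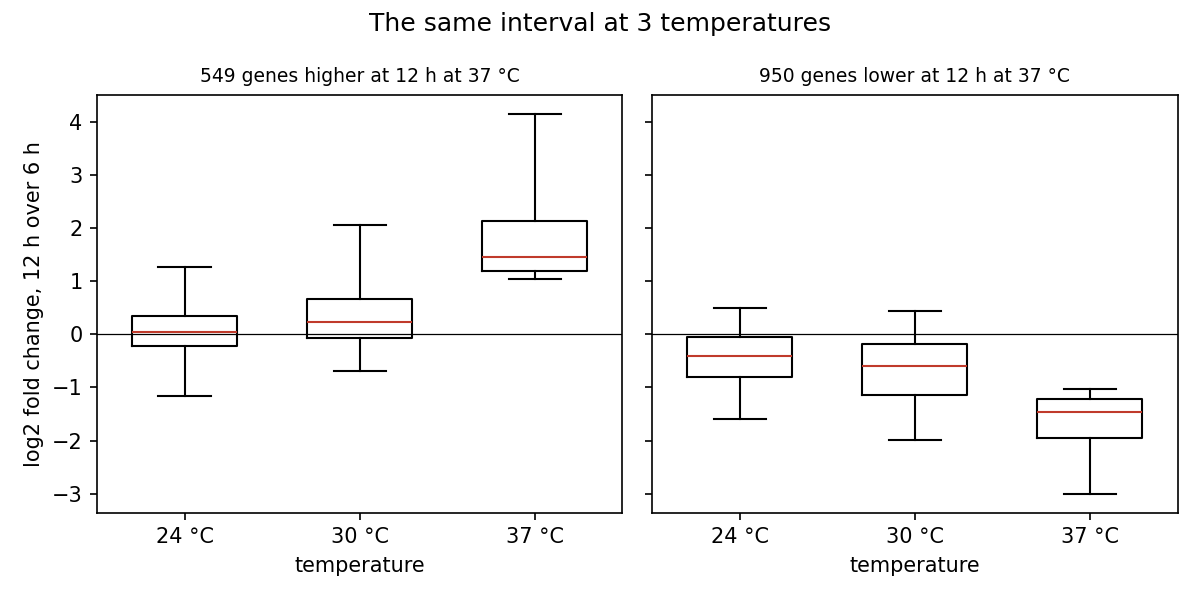
Log2 fold change of 12 h over 6 h at 24, 30 and 37 °C for the 549 genes that rose and the 950 that fell at 37 °C; boxes span the quartiles, red lines the medians and whiskers the central 90%, and the 37 °C values chose the genes. Medians of the falling genes are −0.41 at 24 °C and −0.60 at 30 °C, those of the rising genes 0.04 and 0.24.

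Named genes had these values over the 3 temperatures. The COP1 homolog Pp3c5_26150 passed at each of them, with log2 fold changes of −1.87 at 24 °C, −2.39 at 30 °C and −2.59 at 37 °C, and the Rubisco small chain gene Pp3c3_12530 likewise, with −4.47, −4.05 and −2.39. ELF3 Pp3c7_10610 rose at each, by 3.34, 4.56 and 1.98. The B-box gene Pp3c14_10320 fell at each, with −1.09, −1.63 and −1.70, as did GA20ox1 Pp3c25_8200, with −1.40, −2.97 and −1.98. The 24 °C calls of these 2 genes were lost in every fit that left out 1 library. STAY-GREEN-like Pp3c20_6290 had −0.73 at 24 °C, which did not pass, and fell at 30 °C (−1.40) and 37 °C (−1.88). EGY2-like Pp3c24_14160 had 0.04 at 24 °C, −0.63 at 30 °C and −1.90 at 37 °C, and the 37 °C interval differed from that at 24 °C (−1.94 ± 0.29, adjusted p = 0.00116). The eIF3 gene Pp3c24_9310 had 0.80, 0.96 and 2.12, but the difference between 37 °C and 24 °C did not pass (1.33 ± 0.49, adjusted p = 0.157). Nor did that difference pass for Pp3c5_26150 (−0.72 ± 0.39, adjusted p = 0.394), Pp3c3_12530 (2.08 ± 0.63, 0.0785) or Pp3c14_10320 (−0.62 ± 0.36, 0.409). The same held for Pp3c25_8200 (−0.58 ± 0.50, 0.612) and Pp3c20_6290 (−1.15 ± 0.34, 0.0719). For ELF3 Pp3c7_10610 it passed (−1.36 ± 0.36, 0.0448), though not in most fits that left out 1 library.

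Testing the 37 °C interval against the 24 °C interval in the same model gave 190 genes with a higher log2 fold change at 37 °C (0.887% of genes tested) and 425 with a lower one (1.98%). Leaving out 1 of the 8 libraries gave 70 to 253 and 220 to 577, with the lowest values without 24 °C 12 h replicate 1. Of 16 genes named by rule with such a difference, 10 passed in all 8 of those fits. They include PRR3 Pp3c16_18610, with −1.25 at 37 °C and 0.16 at 24 °C (difference −1.40 ± 0.22, adjusted p = 0.00158), and the COP1 homolog Pp3c1_13190, with −1.67 and 0.11 (−1.78 ± 0.36, adjusted p = 0.00922). CCR2 Pp3c11_19620 had −1.19 at 37 °C and 0.53 at 24 °C (−1.72 ± 0.26, adjusted p = 0.0012). The alpha/beta-hydrolase Pp3c3_11730 moved in opposite directions, with −1.99 at 37 °C and 1.4 at 24 °C. Its means after 6 h were 84.3 CPM at 37 °C and 17.5 CPM at 24 °C. After 12 h they were 21.1 CPM at 37 °C and 46.1 CPM at 24 °C.

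The largest difference among genes named by rule was in the CCA1 homolog Pp3c3_37540, whose Arabidopsis namesake is a dawn-phased core clock factor. Its level at 24 °C rose over the interval to 16.4 CPM at 12 h, against 1.53 CPM at 6 h, while at 37 °C it was at 0.414 and 0.299 CPM at 12 h, against 1.66 and 0.919 CPM at 6 h (difference −5.24 ± 0.83, adjusted p = 0.00157). After 24 h it stood at 77.3 CPM at 37 °C and 217 CPM at 24 °C. Pp3c23_19470, named cold regulated protein 27, a gene tied to the clock in Arabidopsis, had 129 and 93.8 CPM at 12 h and 159 and 166 CPM at 6 h at 37 °C. Its 24 °C means were 57.6 CPM at 12 h and 12.0 CPM at 6 h (difference −2.81 ± 0.38, adjusted p = 0.000503). On the side of higher values at 37 °C, the cyclophilin-like Pp3c12_18980 had 1.12 at 37 °C and −0.34 at 24 °C (1.46 ± 0.23, adjusted p = 0.0014).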

How the data were processed

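Messenger RNA of protonemata was sequenced by the authors as paired reads, demultiplexed with bcl2fastq 1.8.4, aligned with BWA-MEM 0.7.17.1 and counted per gene with featureCounts at default settings, as the study's methods and the submitters' notes state. The deposited values are raw read counts for 32926 genes, not normalized. Default counting ignores strand, so reads of a gene and of one overlapping it, antisense included, are not separable.

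The analysis of these counts used edgeR 4.0.16 under R 4.3.3, and genes entered the fit if their CPM exceeded 0.5 in 2 or more of the 24 libraries. A quasi-likelihood model with 12 groups, 2 libraries each and 12 residual degrees of freedom was fitted with TMM scaling, so the spread is shared by all groups. Adjusted p-values (Benjamini-Hochberg over the 21429 genes of a comparison) under 0.05 were called where the log2 fold change was 1 or more in size. The standard error is the size of the log2 fold change divided by the root of the F statistic. Replicates are labelled biological, and p-values measure the spread between these libraries only. Totals of all libraries ranged from 4332911 to 10696081, and scripts were tested on simulated data.

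The comparisons, gene lists and tests were chosen with earlier results of these data known. Gene names and lists are name patterns applied to 530 genes named in the study's supplementary tables, 470 of them from genes up-regulated there after 1 h at 37 °C, and clock genes come from its circadian table. No gene ID matched the reference table. Genes were named by rule: in each direction, the 12 named and 2 unnamed changed genes with the largest fold change whose libraries do not overlap and whose mean log2 CPM is at least 1; up to 4 changed and 2 abundant members of each list; genes in the paper's text; the circadian table; and the 4 largest differences between intervals in each direction. Alternatives were DESeq2 1.42.0, limma-voom 3.58.1 with eBayes or treat, glmTreat, no fold limit, leaving out each library, fitting only the libraries compared, a replicate block, scaling by RLE or by library totals, and filtering at a CPM of 1 or not at all. Promoter motifs were not analysed here.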

Additional observations from a re-analysis of the deposited data

Results flagged for a closer look

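The change from 6 to 12 h differed between 37 °C and 24 °C in a test of the difference itself for 190 genes with a higher and 425 with a lower log2 fold change at 37 °C (edgeR). Among genes named by rule the difference was negative for the CCA1 homolog Pp3c3_37540 (−5.24), the alpha/beta-hydrolase Pp3c3_11730 (−3.39), the unnamed Pp3c1_40570 (−3.37), the low temperature and salt responsive Pp3c2_35200 (−3.26) and cold regulated protein 27 Pp3c23_19470 (−2.81). It was also negative for EGY2-like Pp3c24_14160 (−1.94), the COP1 homolog Pp3c1_13190 (−1.78), CCR2 Pp3c11_19620 (−1.72), heat shock factor 3 Pp3c22_9250 (−1.48), PRR3 Pp3c16_18610 (−1.40), DET1 Pp3c19_5540 (−1.38) and ELF3 Pp3c7_10610 (−1.36). It was positive for the P-loop hydrolase Pp3c25_6240 (1.68), cyclophilin-like Pp3c12_18980 (1.46), EPR1 Pp3c12_17450 (1.42) and protein phosphatase 5.2 Pp3c10_2570 (1.35). Leaving out 1 of the 8 libraries in turn ended the call in at least 1 fit for 6 of the 16. For Pp3c1_40570 it ended in every such fit. Of these fits, Pp3c22_9250 passed only in that without 37 °C 12 h replicate 1, and Pp3c10_2570 only in that without 37 °C 12 h replicate 2. Pp3c7_10610 passed only without replicate 1 of 37 °C 6 h or of 37 °C 12 h. Pp3c12_17450 was lost without replicate 1 of either 24 °C group and without replicate 2 of either 37 °C group. Pp3c19_5540 was lost only without 24 °C 6 h replicate 2. For Pp3c22_9250 the adjusted p reached 0.153 (without 24 °C 6 h replicate 2), for Pp3c7_10610 0.225 (without 37 °C 6 h replicate 2), for Pp3c10_2570 0.127 and for Pp3c12_17450 0.0943 (both without 24 °C 12 h replicate 1), and for Pp3c19_5540 0.0501 (without 24 °C 6 h replicate 2).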

How the results depend on the processing

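Counts are given as genes higher, then lower. For 37 °C 12 h against 6 h (549 and 950), library totals gave 903 higher, limma-voom treat 28 and 127, glmTreat 46 and 226, no fold limit 1170 and 1872, and only the libraries compared 129 and 570. For 24 °C (94 and 246), limma-voom treat gave 12 and 16, glmTreat 20 and 31, no fold limit 238 and 490, and only the libraries compared 145 higher. For 30 °C (144 and 439), library totals gave 262 higher, limma-voom treat 7 and 34, glmTreat 18 and 74, no fold limit 285 and 847, and only the libraries compared 95 higher. For the difference between intervals (190 and 425), limma-voom treat gave 4 and 15, glmTreat 14 and 35, and only the libraries compared 94 higher. Treat and glmTreat test against the fold limit and so pass fewer genes by construction; the causes of the other shifts were not tested. With library totals the share of changed genes that were higher was 55.6% against 36.6% at 37 °C, 41.4% against 27.6% at 24 °C and 44.8% against 24.7% at 30 °C.

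For chaperone-related genes at 37 °C (3 and 1), limma-voom treat and glmTreat gave 0 higher, no fold limit 6 and 2, only the libraries compared 0 higher and limma-voom eBayes 3 lower. For circadian table genes (3 and 8), limma-voom treat gave 1 and 1, glmTreat 1 and 2, no fold limit 14 lower and only the libraries compared 1 higher. Leaving out 1 library gave 303 to 625 higher and 767 to 1205 lower at 37 °C, 52 to 67 and 109 to 192 at 24 °C, 77 to 192 and 324 to 426 at 30 °C, and 70 to 253 and 220 to 577 for the difference; for chaperone-related genes 0 to 3 and 1 to 4, and for circadian genes 1 to 5 and 8 to 11. Where this left a group with 1 library, that library was assumed to vary like the others.

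Replicate numbers did not pair the libraries (deviations of same-numbered libraries correlated at −0.107). The replicate block called 1534 genes in all at 37 °C, 1471 of them among the 1499 of the report, and all 42 named genes that changed also passed with it. Numbers crossed between the groups, an alternative added after seeing the data, gave 1551 genes.

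The limits are few libraries, a spread shared with other groups and names for only 528 of the genes tested. Of the 42 named genes that changed, 40 to 42 passed under RLE scaling, library totals, both filters, DESeq2 and limma-voom eBayes, 29 with only the libraries compared, 13 under glmTreat and 9 under limma-voom treat. No named gene that changed reversed its direction in the alternatives run.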
